A study of Homo sapiens with 24 samples.

Results

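The cytosolic ribosomal protein genes are the protein-coding genes whose symbols begin with RPL or RPS and name a protein of the large or the small subunit, including RPLP0, RPLP1, RPLP2 and RPSA. The rule found 81 of them among the 62703 Ensembl gene identifiers of the count tables, 49 of the large and 32 of the small subunit, on 21 chromosomes. Pseudogenes were left out, as were FAU and the paralogs whose symbols the rule does not take. Reads were counted in 24 RNA-seq libraries of T/C-28a2 cells, an immortalised human chondrocyte line, in 6 groups of 4. WT Ctr were unedited cells in isotonic medium, and WT Sor were unedited cells kept for 7 days in medium with 100 mM sorbitol, an osmolyte that makes the medium hyperosmotic. WNK2- Ctr and WNK2- Sor were the same conditions in a line with exon 2 of the kinase gene WNK2 deleted by CRISPR/Cas9, grown from 1 clone. WNK2 trans Ctr and WNK2 trans Sor were unedited cells transfected with a WNK2 plasmid by Lipofectamine for 48 hours. They were then kept for 7 days in medium with less serum, without or with 100 mM sorbitol. Untransfected cells served as their comparison, so the plasmid, the lipid reagent and WNK2 itself cannot be told apart. The study's methods describe medium with less serum for the sorbitol treatment of untransfected cells too. The study's methods call the libraries of a group biological replicates, the labels do not say whether they came from separate cultures, and p-values measure the spread between these libraries.

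Each ribosome holds a single copy of nearly every one of these proteins, bound to ribosomal RNA made mostly by RNA polymerase I, while the stalk of the large subunit carries several copies of RPLP1 and RPLP2 on RPLP0. Ribosomal protein mRNAs are among the most abundant in growing cells, including chondrocytes that secrete matrix. Most of them start with a C followed by an unbroken run of pyrimidines, the 5′ terminal oligopyrimidine (TOP) motif, through which mTOR and LARP1 control their translation and stability.

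The annotated starts of members that carry the results are given first, because the TOP motif is the sequence feature these genes are known to share. Each run is 10 bases before and 20 bases from the start in RefSeq on GRCh38.p14, 5′ to 3′ on the transcribed strand, with the C at the start and the pyrimidines that follow it in capitals.
RPSA, chr3:39406710-39406739, plus strand: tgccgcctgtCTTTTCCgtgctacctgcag
RPLP0, chr12:120201092-120201121, minus strand: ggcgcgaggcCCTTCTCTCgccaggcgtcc
RPS6, chr9:19380217-19380246, minus strand: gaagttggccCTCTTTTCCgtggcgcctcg
RPS3A, chr4:151099618-151099647, plus strand: cccacttccgCCCTTTTggctctctgacca
RPL34, chr4:108620566-108620595, plus strand: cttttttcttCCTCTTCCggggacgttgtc
RPL11, chr1:23691796-23691825, plus strand: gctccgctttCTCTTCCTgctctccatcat
RPL39, chrX:119791611-119791640, minus strand: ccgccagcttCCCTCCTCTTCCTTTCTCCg
RPL41, chr12:56116623-56116652, plus strand: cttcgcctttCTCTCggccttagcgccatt
RPS25, chr11:119018324-119018353, minus strand: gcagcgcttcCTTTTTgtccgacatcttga
RPS15, chr19:1438386-1438415, plus strand: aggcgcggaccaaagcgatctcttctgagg
RPS27L, chr15:63157458-63157487, minus strand: gatgccgagcgcagatcgcttgcagcttgc
RPL39 had the longest run of those shown, 19 bases, and RPL41 the shortest, 5 bases. RPS15 and RPS27L are shown because no such run began at their annotated start. RPL34 and RPL11 each had a further start in the table, which is not shown.

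The motif was searched as C at the annotated start followed by at least 4 letters that were each C or T, on the transcribed strand only, since it is defined at the start of the transcript. It was present in 46 of the 64 members in the promoter table (71.9%), 28 of 39 of the large and 18 of 25 of the small subunit, and 17 members were not in the table. Of all 27305 genes in the table, 1404 had it (5.14%), and of all 35116 promoters 4.07%. A match is a description of the letters at an annotated start, and no match says only that these letters are not there.

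Of the 81 members, 71 passed edgeR's filter on low counts, 42 of the large and 29 of the small subunit. The other 10, among them RPS10, RPS4X, RPL10L, RPL15, RPL17, RPL26, RPL32, RPL35A and RPL36A, were listed at 0 to 2 reads in every library. Most are core proteins that all cells use, so a value of 0 there is not a measurement of absence. In GENCODE 29, 6 of these 10 shared exon sequence with another gene on the same strand, 5 of them with a protein-coding gene, against 9 and 3 of the 71 tested members. While RPL15 was listed at 0, its pseudogene RPL15P3 held 443 to 1331 reads per library. The 71 tested members were well covered for the most part, with a median over members of 8316.5 for their median raw count, but RPL5 (1 to 26 reads) and RPL3L (median of 9.5 reads) were near the floor. RPL5 is uncertain, since its pseudogene RPL5P34 held 25 to 147 reads per library.

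Total counts ran from 14153002 to 25664619 per library. WNK2 was counted in each library as a check of the labels. It had 163 to 290 raw reads in the libraries labelled WNK2 trans Ctr, below the 1217 to 2568 in those labelled WT Ctr and against the label, and 2237 to 3739 in WNK2 trans Sor. It had 440 to 501 in WNK2- Ctr, 322 to 503 in WNK2- Sor and 266 to 314 in WT Sor, all counted over the whole gene and not over exon 2. The libraries labelled WT Sor, from unedited cells, thus held fewer WNK2 reads than those of the deleted clone in WNK2- Ctr. The study's supplement instead reports similar normalized WNK2 counts in unedited cells under all conditions. It states that neither sorbitol nor transfection changed them significantly. The counts here in WT Sor and in the libraries labelled WNK2 trans Ctr do not match that report. Directions drawn from WT Ctr, from WT Sor or from the transfected libraries without sorbitol therefore rest on the labels as given. Of 16 chondrocyte markers 10 passed the filter, and SOX9 and CHAD were listed at 0 in all libraries. The summed level of those markers ran from 1909 to 2955 normalized counts in the WT and WNK2 trans groups and from 524 to 624 in both WNK2- groups. HAPLN1, a link protein of cartilage matrix, made up most of that sum in WT Ctr, WT Sor and WNK2 trans Sor, with means of 1488, 1221 and 2157. The markers did not move together in the transfected cells, since 8 of the 10 were lower and 1 higher in WNK2 trans Sor than in WT Sor (median −1.86), with COL2A1 at 58.7 and 24.1 and ACAN at 112 and 29.9 normalized counts in WT Sor and WNK2 trans Sor. Of the 10, 5 were lower in WNK2- Ctr than in WT Ctr and 7 in WNK2- Sor than in WT Sor. Of all tested genes, 15.5% were called lower and 16.1% higher in WNK2 trans Sor than in WT Sor. The shares called lower in WNK2- Ctr against WT Ctr and in WNK2- Sor against WT Sor were 21.5% and 22.7%.

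Ribosomal protein genes together took a larger share of the reads in cells kept without sorbitol. This share of all counts was 6.11, 6.15, 4.38 and 4.54% in WT Ctr replicates 1 to 4 and 3.65, 3.58, 3.33 and 3.80% in WT Sor. Every WT Ctr library therefore lay above every WT Sor library, and the group means were 5.29 ± 0.969% and 3.59 ± 0.196% (SD, n = 4 each). In the clone without exon 2 of WNK2 the share was 4.71, 4.14, 3.86 and 4.03% in WNK2- Ctr and 3.12, 3.65, 3.43 and 3.40% in WNK2- Sor. These groups did not overlap either, with means of 4.18 ± 0.367% and 3.40 ± 0.217%, while WNK2- Sor overlapped WT Sor. In the transfected cells the share was 3.97, 4.51, 6.46 and 4.90% in the libraries labelled WNK2 trans Ctr and 3.80, 3.11, 2.92 and 2.66% in WNK2 trans Sor. These groups did not overlap, with means of 4.96 ± 1.07% and 3.12 ± 0.487%. The share was thus lower with sorbitol in all 3 kinds of cells. In bulk RNA, fewer cells of a type and less RNA per cell cannot be told apart.

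**Figure D1:**
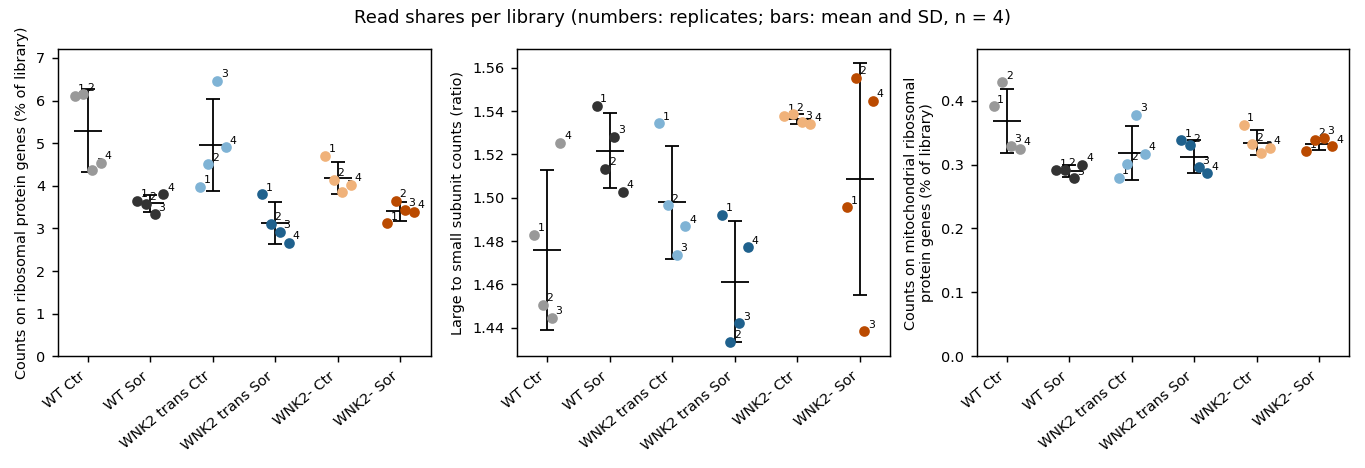
Each library's share of counts in cytosolic ribosomal protein genes (left, percent), the ratio of large to small subunit counts (middle) and the share in mitochondrial ribosomal protein genes (right, percent), by group. Digits are replicate numbers and bars are the group mean and SD. WT Ctr replicates 1 and 2 and replicate 3 of the libraries labelled WNK2 trans Ctr stand highest on the left, at 6.11, 6.15 and 6.46%.

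The balance between the subunits moved little. The ratio of large to small subunit reads was 1.43 to 1.56 over all libraries, 1.44 to 1.53 in WT Ctr and 1.53 to 1.54 in WNK2- Ctr. Reads on the named pseudogenes of members were 1.68 to 2.22 for each 100 reads on members, so adding them left the order of the sorbitol pairs as it was, with mean shares of 5.39% in WT Ctr and 3.66% in WT Sor. The WT Ctr spread came with other measures. In replicates 1 and 2 the read-weighted median gene length was 3675 and 3745 bases and the mitochondrial ribosomal protein share 0.391 and 0.428%, against 4087 and 4011 bases and 0.329 and 0.325% in replicates 3 and 4. Replicate 3 of the libraries labelled WNK2 trans Ctr stood with the first pair, at 3621 bases and 0.378%. Results that rest on these libraries are given with and without those 3, and the part of transcript length in them was not tested.

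Levels of different members spanned several orders of magnitude. Levels are TMM-scaled CPM per kb of the longest annotated transcript, which sets them too low where that transcript is rarely made. In WT Ctr, RPL29 stood at 1426 ± 241, RPL7A at 1372 ± 312, RPL35 at 1257 ± 392, RPS2 at 1160 ± 246 and RPL19 at 1062 ± 247 (SD, n = 4 each), and no neighbours in that order differed by more than their spread. RPSA, a small-subunit protein also known as the laminin receptor precursor, stood at 819 ± 130 and RPLP0 at 718 ± 141. At the low end stood the paralogs RPL39L at 17.5 and RPS27L below it, then RPS15A at 10.1, RPS23 at 3.92, RPL22 at 1.46, RPL5 at 0.418 and RPL3L, known from striated muscle, at 0.136. RPS15A, RPS23 and RPL5 are core proteins of the ribosome, so levels so far under those of the others are uncertain as measures of their mRNA. RPL22 (40 to 135 raw reads per library) is uncertain too. Like RPS15A, it shared exon sequence with a protein-coding gene on the same strand.

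Most ribosomal protein mRNAs were lower with sorbitol in WT cells. Of the 71 tested members, 56 were lower in WT Sor than in WT Ctr and 0 higher in edgeR's quasi-likelihood test, with p-values adjusted by the Benjamini-Hochberg method over all tested genes, while 12.7% of all 16600 tested genes were called lower and 24.1% were called in either direction. The median log2 fold change of the members was −0.64, against 0.04 over all tested genes, and 68 of 71 lay below 0. Of the small subunit 26 of 29 were called (median −0.70), and of the large 30 of 42 (median −0.58). In 47 members every WT Sor library lay below every WT Ctr library, as in 12.5% of all genes. At an unadjusted p under 0.05, 3 members were higher (RPL22, RPL3L and RPL5), and DESeq2 called 57 lower and 1 higher.

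RPSA (ENSG00000168028, GRCh38 chromosome 3, 39406689 to 39412542, plus strand) had the smallest adjusted p of the members fixed by name. Its normalized counts were 32841, 37012, 27622 and 26344 in WT Ctr and 17473, 16342, 16190 and 16758 in WT Sor. The 4 WT Sor libraries lay close together and well below all of WT Ctr. The log2 fold change was −0.89 (SE 0.11, edgeR adjusted p = 3.31e-06). The stalk proteins that bring elongation factors to the ribosome fell together, RPLP0 by 0.77, RPLP1 by 0.58 and RPLP2 by 0.58 on the log2 scale (edgeR adjusted p = 8.79e-05, 0.00253 and 0.0199). RPS27A, which is made fused to ubiquitin, fell by 0.79 and RPS6, the substrate of the S6 kinases, by 0.63 (edgeR adjusted p = 9.79e-05 and 0.00393).

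The 3 largest falls among called members were in RPS23, RPS3A and RPL34. RPS3A (ENSG00000145425, chromosome 4, 151099573 to 151104652, plus strand), a small-subunit protein, had 8297, 14532, 9034 and 6510 normalized counts in WT Ctr and 4250, 4223, 3969 and 4754 in WT Sor. Every WT Sor library lay below WT Ctr, in which replicate 2 stood apart above. The log2 fold change was −1.16 (SE 0.17, edgeR adjusted p = 2.48e-05). RPL34 (chromosome 4, 108620566 to 108630412, plus strand), of the large subunit, had 8965, 16725, 8776 and 6621 normalized counts in WT Ctr against 5280, 4530, 4865 and 5484.5 in WT Sor, also without overlap. Its log2 fold change was −1.03 (SE 0.20, edgeR adjusted p = 0.000716). RPS23 had a log2 fold change of −1.32 (SE 0.25, edgeR adjusted p = 0.000422) on far lower counts, 209, 345, 309 and 126 in WT Ctr and 81.7, 70.5, 114 and 131 in WT Sor, which overlapped.

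RPL11, which with RPL5 and 5S RNA binds the ubiquitin ligase MDM2, had 12047, 12040, 6563 and 8626 normalized counts in WT Ctr and 6758, 6608, 6186 and 7130 in WT Sor. The groups overlapped, since WT Ctr replicate 3 lay among the WT Sor libraries. The log2 fold change was −0.56 (SE 0.19, edgeR adjusted p = 0.0357). RPL41, which encodes the shortest ribosomal protein, had −0.26 (edgeR adjusted p = 0.606) and RPL5 1.19 (edgeR adjusted p = 0.0667). With the reads of its pseudogenes added, RPL5 instead had −1.09 (edgeR adjusted p = 0.00178), so its direction depends on where those reads are put. Without WT Ctr replicates 1 and 2 and replicate 3 labelled WNK2 trans Ctr, 31 members were lower and the median was −0.37, with 14.5% of all genes called. These include the WT Ctr libraries with the highest shares, so leaving them out lowers the fall by construction. Without WT Ctr replicates 3 and 4 instead, 59 members were lower and the median was −0.86, with 24.7% of all genes called. Without the first 3, the calls for RPL11 (−0.18, edgeR adjusted p = 0.575), RPLP2 (−0.20, edgeR adjusted p = 0.428) and RPS6 (−0.26, edgeR adjusted p = 0.131) were lost, while RPSA, RPS3A, RPL34 and RPS23 were still called.

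Members with and without the TOP motif both had low values. With sorbitol in WT cells, 33 of 42 tested members with the motif were called lower (median −0.63) and 12 of 13 without it (median −0.79). Of 752 other tested genes with the motif 134 were lower (17.8%, median −0.03), against 12.7% of all genes. Of 16 tested mRNAs of a list known to carry the motif, 7 were called, each lower, among them TPT1, NACA (−0.80), NAP1L1 (−0.63) and FAU (−1.27), itself a ribosomal protein gene that is counted again below among those outside the symbol rule. Among 351 tested genes with transcripts under 1000 bases, 60 were lower and 21 higher (median −0.09).

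**Figure D2:**
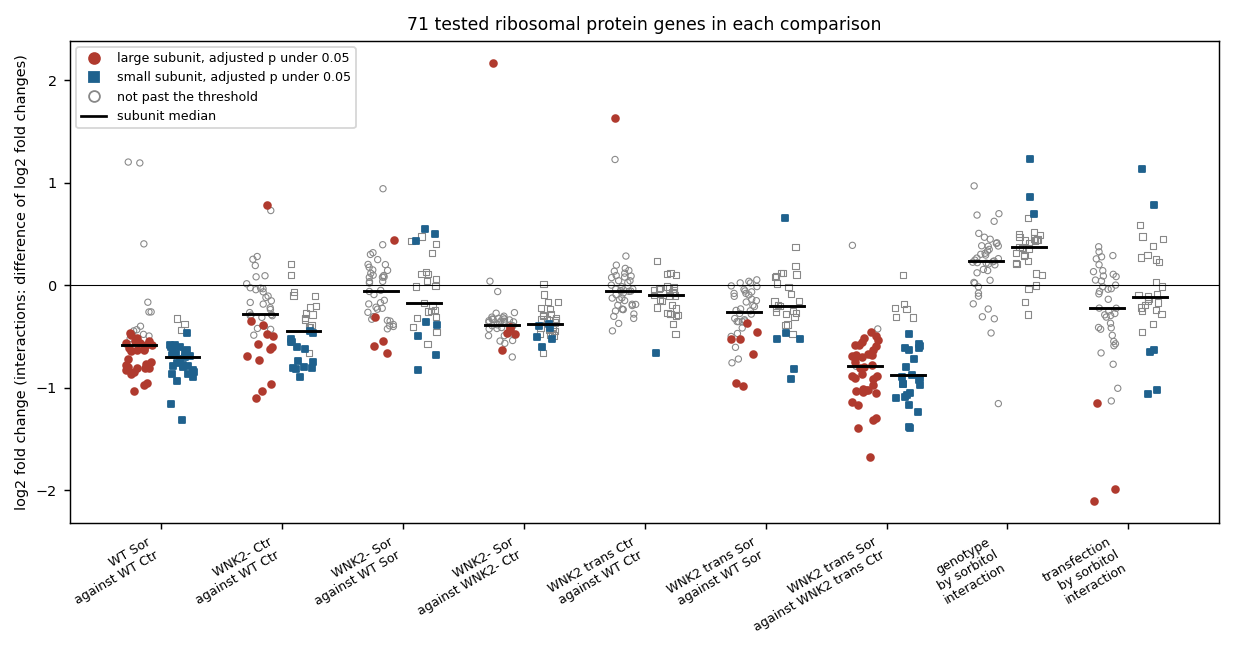
The log2 fold change of each of the 71 tested members in the 7 pairwise comparisons, with the large subunit as circles and the small subunit as squares. Filled symbols had an edgeR adjusted p under 0.05, grey open ones did not, and the black line is the median of each subunit. The columns for sorbitol in WT and in transfected cells lie almost wholly below 0, with medians of −0.64 and −0.80 over all members.

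In the clone without exon 2 of WNK2, sorbitol moved nearly every member the same way, but few passed the test. Of 71 members 11 were lower and 1 higher in WNK2- Sor than in WNK2- Ctr in the edgeR test, while 6.64% of all genes were called lower, 8.25% higher and 14.9% in all. At an unadjusted p under 0.05, 42 members were lower. The median was −0.38, 68 of 71 lay below 0, and in 49 members every WNK2- Sor library lay below every WNK2- Ctr library, as in 13.8% of all genes. RPL11 had 10319, 9110, 8180 and 8911 normalized counts in WNK2- Ctr and 5098, 7239, 4912 and 6274 in WNK2- Sor. These did not overlap, and the log2 fold change was −0.63 (SE 0.19, edgeR adjusted p = 0.0248). RPS24, a small-subunit protein whose gene is mutated in Diamond-Blackfan anaemia, fell from 11537 to 7608 (log2 fold change −0.60, SE 0.16, edgeR adjusted p = 0.0111). RPS18 fell from 13422 to 9328 (−0.53, SE 0.17, edgeR adjusted p = 0.0424). RPSA (−0.40, edgeR adjusted p = 0.0146) and RPS27A (−0.38, edgeR adjusted p = 0.0470) were called too.

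RPL3L was the member called higher, from 5.27 ± 3.06 to 24.3 ± 5.44 normalized counts (SD, n = 4 each; log2 fold change 2.17, SE 0.44, edgeR adjusted p = 0.000987), on 2 to 11 and 18 to 35 raw reads. The stalk genes were not called, with RPLP0 at −0.32, RPLP1 at −0.27 and RPLP2 at −0.36 (edgeR adjusted p = 0.0869, 0.199 and 0.205), nor were RPS6 at −0.42, RPL41 at −0.57 and RPL5 at 0.04 (edgeR adjusted p = 0.0691, 0.280 and 0.969). The count moved with the fit, and the cause was not tested. Fitted on its own 8 libraries, the comparison called 62 members lower and 1 higher, with 30.9% of all genes called, and once library trends with GC content and length were removed 47 lower and 1 higher, with 26.99% of all genes called. Without the 3 libraries named before, 41 were lower, and leaving out single libraries moved the count from 3 without WNK2- Ctr replicate 1 to 26 without replicate 3 labelled WNK2 trans Ctr.

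The sorbitol responses of the clone and of WT cells were compared by their interaction, and 3 members (4.23%) differed in the edgeR test, all higher. Of all genes 3.99% were called higher, a share close to that of the members, 4.66% lower and 8.65% in all. At an unadjusted p under 0.05, 16 members were higher and 0 lower, and DESeq2 called 5 higher. A positive value means that the log2 fold change with sorbitol was less negative in WNK2- cells. RPS3A differed by 0.86 (SE 0.24, edgeR adjusted p = 0.0243), RPS23 by 1.23 (SE 0.35, edgeR adjusted p = 0.0275) and RPS27L, a paralog of RPS27, by 0.70 (SE 0.22, edgeR adjusted p = 0.0493). The median over members was 0.29, and the members fixed by name had −1.15 to 0.49, none called. Without the 3 libraries edgeR called 0 members and the median was −0.02, and without WT Ctr replicates 3 and 4 it was 18 and 0.51. The estimate therefore turned on which WT Ctr libraries were used, and so did single ones, with 0 members without WT Ctr replicate 2 and 9 without WT Ctr replicate 4.

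Without sorbitol, part of the set was lower in the clone than in WT cells. Of 71 members 26 were lower and 1 higher in WNK2- Ctr in the edgeR test, while 21.5% of all genes were called lower and 42.1% called at all. The median was −0.32, and 14 members had every WNK2- Ctr library below every WT Ctr library, as 17.7% of all genes did, a share close to that of the members. RPL23 (chromosome 17, 38847865 to 38853843, minus strand), a large-subunit protein that can bind MDM2, had 19253, 32373, 18633 and 15809 normalized counts in WT Ctr and 11611, 9883, 9215 and 9585 in WNK2- Ctr, without overlap. The log2 fold change was −1.09 (SE 0.17, edgeR adjusted p = 1.01e-05). RPL13A had 43172, 48704, 33221 and 28269 in WT Ctr and 23039, 19363, 17616 and 18444 in WNK2- Ctr, again apart, with −0.97 (SE 0.15, edgeR adjusted p = 9.08e-06). RPS6 (chromosome 9, 19375715 to 19380254, minus strand) fell from 19920 to 10685 (log2 fold change −0.90, edgeR adjusted p = 4.11e-05), and RPL34 by 1.03 on the log2 scale (edgeR adjusted p = 0.000240).

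RPL22, an RNA-binding protein that general translation can do without, was the member called higher. It was counted at 40 to 63 raw reads in WT Ctr and 111 to 135 in WNK2- Ctr, and is uncertain as given above. It had 57.9, 65.1, 68.2 and 53.1 normalized counts in WT Ctr and 109, 101, 116 and 95.0 in WNK2- Ctr, without overlap (log2 fold change 0.78, SE 0.16, edgeR adjusted p = 0.0004). RPSA was close to WT Ctr, at 33284, 28553, 28185 and 28496 normalized counts, with −0.06 (edgeR adjusted p = 0.681). RPLP0 fell by 0.35 (edgeR adjusted p = 0.0259), but RPLP1 (−0.17), RPLP2 (−0.29), RPS27A (−0.28), RPL11 (−0.10), RPL41 (0.08) and RPL5 (0.73) were not called, with edgeR adjusted p of 0.0876 to 0.864. Without the 3 libraries 11 members were lower and 4 higher, the median was −0.04 and RPLP0 was no longer called (−0.11, edgeR adjusted p = 0.369). Without WT Ctr replicates 3 and 4 instead, 42 were lower and 1 higher, with a median of −0.57.

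Genes beside several of these members were also lower. The 20 tested genes nearest to RPL13A had a median of −0.58 (log2) between WNK2- Ctr and WT Ctr, those nearest to RPS6 −0.52 and those nearest to RPL23 −0.46. Around RPL34 the median was −0.06 and around RPL22 0.07. The part of copy number in this clone was not tested, and the lower chondrocyte marker sums of the same libraries stand beside these values.

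With sorbitol, members differed between the clone and WT cells in both directions, but in smaller shares than all genes did. In the edgeR test 4 members were higher (5.63%) and 9 lower (12.7%) in WNK2- Sor than in WT Sor. Of all genes, 23.7% were called higher, 22.7% lower and 46.3% in all. The median of the members was −0.06, 11 members lay wholly above (27.7% of all genes did) and 18 wholly below (26.2%). RPS15, in the head of the small subunit, had 13281, 12966, 12917 and 14265 normalized counts in WT Sor and 18250, 18506, 23225 and 18230 in WNK2- Sor, which did not overlap. Its log2 fold change was 0.55 (SE 0.17, edgeR adjusted p = 0.0107). RPSA rose by 0.43 (edgeR adjusted p = 0.00267), RPS27L by 0.50 (edgeR adjusted p = 0.0111) and RPL39L, a paralog of RPL39 known from testis, by 0.44 (edgeR adjusted p = 0.0266). After the GC and length correction RPS27L (edgeR adjusted p = 0.0551) and RPL39L (edgeR adjusted p = 0.267) were not called.

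RPS6 and RPL13A were among the largest falls. RPS6 had 13442, 12674, 11935 and 13416 normalized counts in WT Sor and 7457, 8464, 8316 and 7800 in WNK2- Sor, far apart, with a log2 fold change of −0.68 (SE 0.15, edgeR adjusted p = 0.000658). RPL13A fell from 23350 to 14734 (−0.66, SE 0.15, edgeR adjusted p = 0.000561). The 20 tested genes around RPL13A had a median of −0.79, those around RPL23 −0.64 and those around RPS6 −0.37, while those around RPS15 had −0.26 and around RPSA −0.06. RPLP0 (0.10), RPLP1 (0.15), RPLP2 (−0.06), RPS27A (0.13), RPL11 (−0.18), RPL41 (−0.22) and RPL5 (−0.42) were not called, with edgeR adjusted p of 0.389 to 0.811. Fitted on these 8 libraries alone, 15 members were higher and 27 lower, with 63.1% of all genes called. Without the 3 libraries, which are not in this comparison but share its estimate of the spread, 7 were higher and 18 lower.

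The set was lower with sorbitol in the transfected cells as well. Of 71 members 61 were lower and 0 higher in WNK2 trans Sor than in the libraries labelled WNK2 trans Ctr in the edgeR test, while 23.7% of all genes were called lower and 48% called at all. The median was −0.80, 69 of 71 lay below 0, and 41 had no overlap, as 16.7% of all genes did. Of the large subunit 38 of 42 were called (median −0.79) and of the small 23 of 29 (median −0.87). Without the 3 libraries the count was 58 and the median −0.65. At an unadjusted p under 0.05 1 member, RPL22, was higher, and DESeq2 called 61 lower and 1 higher.

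RPL39, which lines the tunnel through which the new protein leaves, had the largest fall. RPL39 (ENSG00000198918, chromosome X, 119786504 to 119791643, minus strand) had 4145, 3961, 7850 and 6769 normalized counts in the libraries labelled WNK2 trans Ctr and 3452, 1343, 1411 and 944 in WNK2 trans Sor. The groups were apart, with WNK2 trans Sor replicate 1 nearest to the others, and the log2 fold change was −1.67 (SE 0.31, edgeR adjusted p = 9.50e-05). RPS25, which some viral internal ribosome entry sites need, had 4242, 4527, 7866 and 6413 against 3866, 1678, 1774 and 1457. It showed the same order of libraries, without overlap, and fell by 1.39 on the log2 scale (SE 0.27, edgeR adjusted p = 0.000140). RPL41 had 9307, 10034, 16663 and 13625 against 9576, 2907, 3695 and 2815, overlapping through replicate 1, and its log2 fold change was −1.39 (SE 0.33, edgeR adjusted p = 0.00128). RPSA (−0.59), RPLP0 (−0.81), RPLP1 (−0.54), RPLP2 (−0.58), RPS27A (−0.87), RPS6 (−0.80) and RPL11 (−0.87) were all lower, with edgeR adjusted p of 5.37e-06 to 0.0101, and RPL5 (−0.79, edgeR adjusted p = 0.149) was not called.

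Without sorbitol the transfected cells differed from WT in 2 members, 1 in each direction, in the edgeR test, while 5.57% of all genes were called higher, 6.98% lower and 12.5% in all. RPS27L (ENSG00000185088, chromosome 15, 63125872 to 63158021, minus strand) had 1539, 2320, 1488 and 1285 normalized counts in WT Ctr and 975, 925, 1321 and 966 in the libraries labelled WNK2 trans Ctr. The groups overlapped through replicate 3 of the transfected cells, and the log2 fold change was −0.66 (SE 0.16, edgeR adjusted p = 0.00512). RPL3L rose from 5.46 to 17.2 (log2 fold change 1.63, SE 0.47, edgeR adjusted p = 0.0231) on few reads. No member lay wholly below WT Ctr (5.96% of all genes did) and 2 lay wholly above (6.32%). The median of the members was −0.07, and those fixed by name had −0.28 to 1.23, none called.

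With sorbitol, 1 member was higher and 12 lower in WNK2 trans Sor than in WT Sor in the edgeR test, while 16.1% of all genes were called higher, 15.5% lower and 31.7% in all. The 12 were 16.9% of the members, close to the share of all genes, and only 2 members lay wholly below WT Sor, where 15.3% of all genes did. The median was −0.24. RPL41 had 9562, 9902, 7890.5 and 10149 normalized counts in WT Sor and 9576, 2907, 3695 and 2815 in WNK2 trans Sor, so 3 libraries lay below all of WT Sor and 1 lay among them. Its log2 fold change was −0.98 (SE 0.33, edgeR adjusted p = 0.0243). RPL39 (−0.96, SE 0.31, edgeR adjusted p = 0.0191) and RPS25 (−0.92, SE 0.27, edgeR adjusted p = 0.0103) overlapped too. RPS23 was the member called higher, from 99.1 to 158 (log2 fold change 0.66, SE 0.25, edgeR adjusted p = 0.0461). The other members fixed by name had −0.76 to 0.02 and were not called. The count was 31 without WNK2 trans Sor replicate 1, 3 without WNK2 trans Sor replicate 3, and 22 after the GC and length correction.

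In the interaction of transfection with sorbitol 2 members were higher (2.82%) and 7 lower (9.86%) in the edgeR test. Of all genes 35.5% were called, a larger share than of the members, whose median was −0.14. RPS27L differed by 0.78 (SE 0.22, edgeR adjusted p = 0.00795) and RPS23 by 1.13 (SE 0.35, edgeR adjusted p = 0.0129), so the log2 fold change with sorbitol was higher in transfected cells. RPL3L differed by −2.10 (SE 0.65, edgeR adjusted p = 0.0142), a value made from groups with means of 5.46 to 17.2 normalized counts. Without the 3 libraries 15 members were called, RPL3L (edgeR adjusted p = 0.0801) not among them. The count was 4 without WT Ctr replicate 3 and 23 without WNK2 trans Sor replicate 1. These comparisons share groups with those above, so their values are given side by side and not counted as further support.

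**Figure D3:**
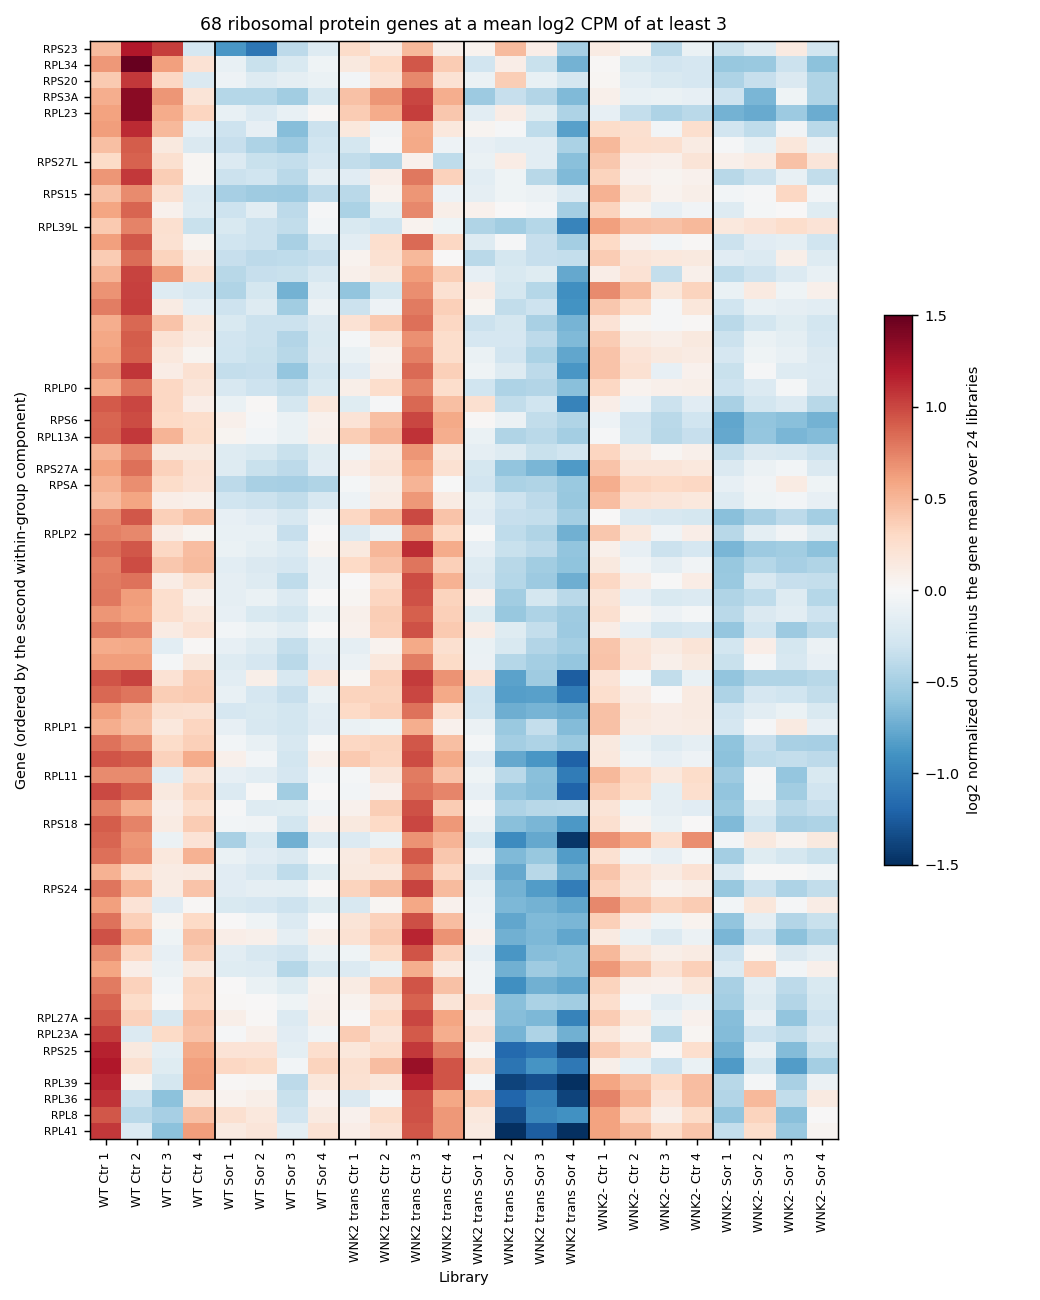
Log2 normalized counts of the 68 tested members whose mean log2 CPM was 3 or more (rows) in the 24 libraries (columns, by group and replicate), each gene minus its own mean. Rows are ordered by the component of the members' variation between replicates that carried 21.2% of it, and some of the members named in the text are labelled. RPL41, RPL39 and RPS25 lie at one end, and RPS23, RPL34, RPS20 and RPS3A at the other.

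Replicates of one group also differed among themselves in these genes, along a pair of directions. Over the 68 members whose mean log2 CPM was 3 or more, the first principal component of the deviations from group means held 70.5% of their variance, and all 68 members had the same sign on it. The second held 21.2% and had 22 members on one side, RPL41, RPL8, RPL36, RPL39, RPS25, RPL23A and RPL27A among them, with RPS23, RPL34, RPS20, RPS3A and RPL23 at the other end. In 9679 other genes the slope on the first component went with GC content (Pearson r 0.63 across genes) and with log2 transcript length (−0.57), and that on the second with GC content (0.73) and hardly with length (−0.05). Among the 68 members themselves those values were 0.27 and −0.15 for the first and 0.28 and −0.13 for the second. Genes of one library share its depth and preparation, so these are descriptions across genes and not tests.

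After the GC and length correction, the median within-group SD of the members on the log2 scale was 0.374 in WT Ctr where it had been 0.367, and 0.316 in the libraries labelled WNK2 trans Ctr where it had been 0.342. For other genes in WT Ctr it was 0.169 where it had been 0.239.

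Paralogs were compared with their parent genes within each library, since both then share its depth. The log2 ratio of RPS27L to RPS27 was −2.50 ± 0.30 in WT Ctr, −2.48 ± 0.21 in WT Sor, −3.03 ± 0.29 in the libraries labelled WNK2 trans Ctr and −1.82 ± 0.52 in WNK2 trans Sor (SD, n = 4 each). It was −1.95 ± 0.14 in WNK2- Ctr and −1.54 ± 0.15 in WNK2- Sor, the highest group. For RPL22L1 over RPL22, the one tested pair in which the paralog had more reads, it was 3.68 ± 0.48 in WT Ctr and 2.70 ± 0.03 in WT Sor, and 2.98 to 3.30 in the other group means. The count of RPL22 is uncertain, at 40 to 135 raw reads, so its ratio may not be that of the mRNAs. For RPL7L1 over RPL7 the log2 ratio ran from −1.83 ± 0.15 in the libraries labelled WNK2 trans Ctr to −0.84 ± 0.26 in WNK2 trans Sor, and for RPL39L over RPL39 from −4.92 ± 0.34 to −3.60 ± 0.66 in the same groups. Over 4 pairs and 7 comparisons, none of the 28 exact two-sided permutation tests passed adjustment. The smallest p was 0.0286, which is the smallest that 4 against 4 can give. It was reached in several comparisons of each of the 4 pairs. Its Benjamini-Hochberg adjusted value was 0.0533, so this design could hardly show a difference over 28 tests. RPL3L, RPL10L, RPL26L1 and RPL36AL were not tested against their parents, since the paralog or its parent was at or near 0.

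**Figure D4:**
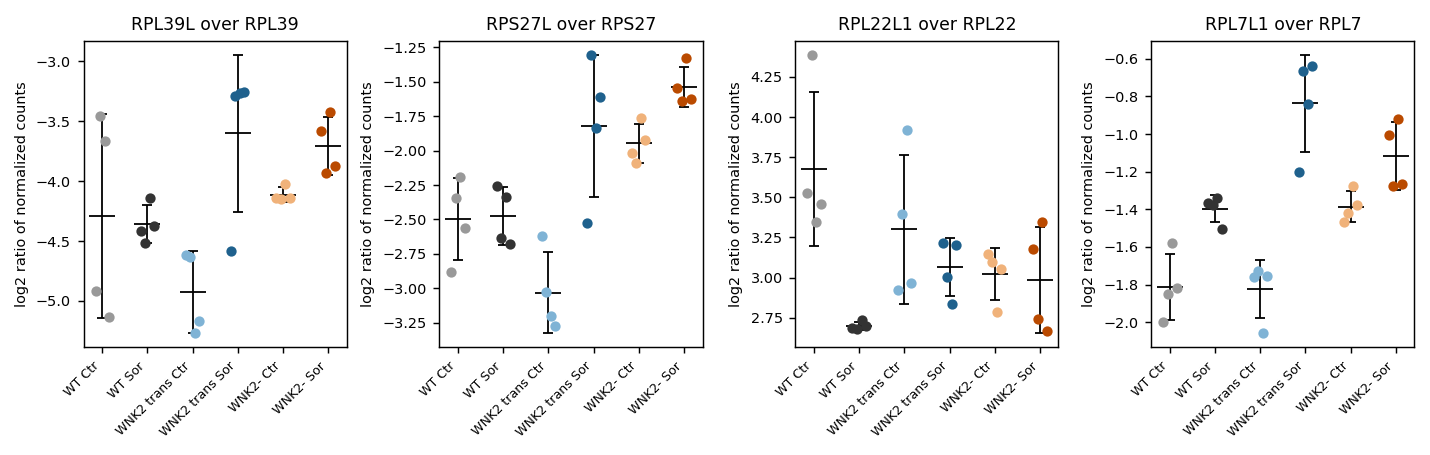
Log2 ratio of normalized counts of RPL39L to RPL39, RPS27L to RPS27, RPL22L1 to RPL22 and RPL7L1 to RPL7 in each library, by group, with the group mean and SD as bars. For RPS27L WNK2- Sor stands highest, at a mean of −1.54, and for RPL22L1 WT Ctr does, at 3.68.

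The genes that make ribosomes were counted beside the genes that encode their proteins. Of 59 tested assembly factors, 20 were called with sorbitol in WT cells, each of them lower (median −0.24), with GNL3 at −0.54, the nucleolar chaperone NPM1 at −0.64 and NOL11 at −0.73. In WNK2- Ctr against WT Ctr, where 26 ribosomal protein genes were lower, 29 assembly factors were higher and 1 lower (median 0.28), with ZNF622 at 0.92, RRP12 at 0.79 and the pseudouridine synthase DKC1 at 0.68. In WNK2- Sor against WT Sor 43 were higher and 1 lower (median 0.44), with ZNF622 at 1.36, SBDS, which works with EFL1 in the last steps of large-subunit assembly, at 1.10 and RRP12 at 0.93. In the interaction of transfection with sorbitol 28 were called, each of them higher (median 0.35), with EFL1 at 0.78, WDR75 at 0.91 and UTP15 at 0.95. The share of all genes called higher was 20.7% in WNK2- Ctr against WT Ctr, 23.7% in WNK2- Sor against WT Sor and 18.1% in that interaction, and the difference between the lists was not tested.

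Of 14 tested genes of RNA polymerase I and its factors, 5 were called with sorbitol in WT cells, each lower, POLR1H (−0.70), TAF1D (−0.38) and POLR1F (−0.37) among them, and 7 were higher and 1 lower in WNK2- Sor against WT Sor, POLR1B (0.75), POLR1D (0.52) and POLR1A (0.43) among them. Of 35 translation initiation factors, 17 were lower and 1 higher with sorbitol in WT cells, with EIF3D at −0.69, EIF1AX at −0.64 and the poly(A)-binding protein PABPC1 at −0.41. In WNK2- Ctr against WT Ctr 13 were higher and 6 lower, with PABPC4 at 0.81, PABPC1 at 0.67 and EIF3E at −1.19. Of 7 elongation factors, EEF1A1 (−0.58) and EEF1B2 (−0.67) were lower and EEF1D (0.67) higher with sorbitol in WT cells. Of 59 tested mitochondrial ribosomal protein genes, which serve the ribosome inside mitochondria, 34 were called with sorbitol in WT cells, each lower (median −0.40), with MRPL39 at −0.75. In the clone with sorbitol 1 was called, and it was higher (median −0.11). With sorbitol in the transfected cells 17 were lower and 1 higher (median −0.19). Of all tested genes, 12.7% were lower and 11.4% higher with sorbitol in WT cells, 20.7% higher and 21.5% lower in WNK2- Ctr against WT Ctr, 23.7% higher and 22.7% lower in WNK2- Sor against WT Sor, 8.25% higher with sorbitol in the clone, and 23.7% lower with sorbitol in the transfected cells. The 6 of 35 initiation factors lower in WNK2- Ctr were thus no larger a share than among all genes.

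Among 16 tested genes of mTOR signalling and TOP mRNA control, SESN2 (0.86) and DDIT4 (1.25), both known to restrain mTOR, were higher with sorbitol in WT cells, and its activator RHEB (−0.38) was lower. In WNK2- Ctr against WT Ctr RPTOR (0.97) and LARP1 (0.83) were higher and RHEB (−0.25) lower, and in WNK2- Sor against WT Sor, where 3 were higher and 3 lower, DDIT4 stood at −2.44. In none of these comparisons was the share of the list that was called, 3, 3 and 6 of 16, above that of all genes (24.1%, 42.1% and 46.3%). Of the 6 tested ribosomal protein genes that the symbol rule leaves out, FAU (−1.27), RPL22L1 (−0.66) and RPL7L1 (−0.43) were called in WT Sor against WT Ctr, all lower. Of 17 proliferation genes, 14 were called in WT Sor against WT Ctr, each lower, against 12.7% of all genes. The summed level of the 17 was 122984 to 142446 normalized counts in WT Ctr and 85154 to 92812 in WT Sor. In the clone 11 of the 17 were lower with sorbitol (median −0.37), against 6.64% of all genes. In the transfected cells 5 were higher and 6 lower (median 0.24), where 24.3% of all genes were higher and 23.7% lower. There 61 ribosomal protein genes were lower. In the libraries labelled WNK2 trans Ctr against WT Ctr 12 of the 17 were lower, against 6.98% of all genes, and 1 ribosomal protein gene was. The part of growth rate in these results was not tested.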

How the data were processed

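Per the labels, poly(A) RNA libraries of T/C-28a2 cells were sequenced. The authors deposited raw read counts per Ensembl gene, without normalization; the submitters' processing notes name FastQC 0.11.9, HISAT2 2.2.1, HTSeq 2.0.2, DESeq2 1.38.3 and GRCh38, while the study's methods give other versions of the last tools. The annotation release and the strand setting of counting are not given in the sources used here. Of the identifiers 62625 matched a symbol and 58279 a GENCODE 29 position.

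Here edgeR 4.0.16 was used in R 4.3.3, beside DESeq2 1.42.0, limma 3.58.1 and the package data.table, version 1.17.8. Low genes were removed by filterByExpr with a minimum count of 10 and a minimum total of 15, TMM factors were applied, and 6 group means were fitted to 24 libraries by edgeR's quasi-likelihood model, tested on simulated data. Benjamini-Hochberg adjustment ran over 16600 genes in each of 7 pairwise comparisons and 2 interactions (threshold 0.05). Normalized counts were scaled to an effective size of 18363900.

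Named with values were, per comparison, the 3 largest called rises and falls at a mean log2 CPM of 3 or more, the 3 smallest p in an interaction, RPLP0, RPLP1, RPLP2, RPSA, RPS6, RPL5, RPL11, RPL41, RPS4X and RPS27A throughout, paralog pairs, and the 3 smallest p of each translation list; RPL22, RPL3L and the members on the replicate components were chosen after their values were seen. Paralog ratios used exact permutation tests. The members and lists were chosen with earlier results of these data known. Replicates differed by more than counting noise (chi-square per degree of freedom 2.30 to 67.9), so none was merged. Alternatives were DESeq2, other scaling factors, other filters, only the compared groups, a replicate block, thinning to the smallest total, pseudogene reads added, a GC and length correction by splines with 5 degrees of freedom, and each library left out. Some genes are not reported here.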

Additional observations from a re-analysis of the deposited data

Results flagged for a closer look

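Among members named by rule, 144 groups of 4 libraries were examined for a library far from the other 3, and 12 (8.33%) had one; chance flags about 1 in 20 such groups. WNK2- Ctr replicate 1 was the highest of its group in 5 of these, with 33284 normalized counts for RPSA (others 28185 to 28553), 30181 for RPLP0 (25394 to 25918), 24322 for RPLP1 (19353 to 19655), 10359 for RPS27A (8632 to 8761) and 6008 for RPS3A (5225 to 5321). WNK2 trans Sor replicate 1 was far above its group for RPL41 (9576, others 2815 to 3695) and RPS25 (3866, others 1457 to 1774). WT Sor replicate 3 was the lowest for RPS25 (3408, others 4332 to 4475). The other flags were single ones: RPS24 in WT Sor replicate 4 (10375, others 9090 to 9298), RPS15 in WNK2- Sor replicate 3 (23225, others 18230 to 18506), RPS27L in replicate 3 labelled WNK2 trans Ctr (1321, others 925 to 975) and RPL3L in WT Ctr replicate 4 (7.96, others 4.33 to 4.82).

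The response to sorbitol differed between WNK2- and WT cells, by the interaction in edgeR's quasi-likelihood test with adjustment over all genes, for RPS3A (0.86, adjusted p = 0.0243), RPS23 (1.23, adjusted p = 0.0275) and RPS27L (0.70, adjusted p = 0.0493). In this interaction 4.23% of the members were called, each higher, close to the 3.99% of all genes called higher. Of all genes, 8.65% were called in either direction. No member was called without WT Ctr replicate 2, so these calls turned on which WT Ctr libraries were used. By the same test, the response to sorbitol differed between transfected and WT cells for RPS27L (0.78, adjusted p = 0.00795), RPS23 (1.13, adjusted p = 0.0129), RPL3L (−2.10, adjusted p = 0.0142), RPL5 (−1.98, adjusted p = 0.0196), RPS24 (−0.63, adjusted p = 0.0321), RPS25 (−1.02, adjusted p = 0.0355), RPL39 (−1.15, adjusted p = 0.0387) and RPS14 (−0.65, adjusted p = 0.0402). In that interaction 2.82% of the members were called higher and 9.86% lower, smaller shares than the 18.1% and 17.4% of all genes. Of all genes, 35.5% were called in either direction. RPL5 (1 to 26 raw reads) and RPL3L (median of 9.5) were near the floor, and RPL5 had 1.38 with its pseudogene reads added.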

How the results depend on the processing

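The counts of called members with sorbitol in WT cells and in transfected cells were within 1.5 times their reported values under every alternative except the one that left out 3 libraries (31 for WT cells), and their medians stayed below 0 throughout. For WNK2- Sor against WNK2- Ctr (12 called) there were 7 with upper-quartile factors, 23 with no filter, 7 with at least 10 counts in every library, 63 with its own groups alone and 48 after the GC and length correction. For the other comparisons with the clone, that correction gave 42 in WNK2- Ctr against WT Ctr and 24 in WNK2- Sor against WT Sor, where its own groups alone gave 42. For WNK2 trans Ctr against WT Ctr (2 called) there were 4 with DESeq2, 1 with at least 10 counts in every library, 0 with its own groups alone and 4 after the correction, and for WNK2 trans Sor against WT Sor (13 called) 22 after it. The genotype interaction (3 called) had 5 with DESeq2, with RLE factors, with upper-quartile factors and with at least 10 counts in every library, 6 with its own groups alone and 6 after the correction. The transfection interaction (9 called) had 14 with no filter, 4 with its own groups alone and 18 after the correction.

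Added after seeing the data, leaving out WT Ctr replicates 1 and 2 and WNK2 trans Ctr replicate 3 gave 31, 15, 25, 42, 1, 27, 0 and 15 called members for WT Sor against WT Ctr, WNK2- Ctr against WT Ctr, WNK2- Sor against WT Sor, WNK2- Sor against WNK2- Ctr, WNK2 trans Ctr against WT Ctr, WNK2 trans Sor against WT Sor and the genotype and transfection interactions. Leaving out WT Ctr replicates 3 and 4 gave 43 for WNK2- Ctr against WT Ctr, 24 for WNK2- Sor against WNK2- Ctr, 7 for WNK2 trans Ctr against WT Ctr and 18 for the genotype interaction. Without single libraries the counts ran from 43 to 59 for WT Sor against WT Ctr, 22 to 34 for WNK2- Ctr against WT Ctr, 9 to 19 for WNK2- Sor against WT Sor, 3 to 26 for WNK2- Sor against WNK2- Ctr, 1 to 6 for WNK2 trans Ctr against WT Ctr, 3 to 31 for WNK2 trans Sor against WT Sor, 52 to 64 for WNK2 trans Sor against WNK2 trans Ctr, 0 to 9 and 4 to 23 for the interactions, and 0 to 17 for the paralog tests, where the 17 came without WNK2 trans Sor replicate 1. The group means of the share of reads, without single libraries, were 5.01 to 5.60% for WT Ctr and 3.52 to 3.68% for WT Sor, 4.01 to 4.29% for WNK2- Ctr and 3.32 to 3.49% for WNK2- Sor, and 4.46 to 5.29% for WNK2 trans Ctr and 2.90 to 3.28% for WNK2 trans Sor.

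RPL5 turned direction. RPL5 with the reads of its pseudogenes added had −1.09 with sorbitol in WT cells and 1.38 in the transfection interaction, where 1.19 and −1.98 were reported. Same-numbered libraries of different groups had deviations correlated at −0.29 to 0.46 over 60 pairs, 10 of them over 0.1. The main fit did not pair libraries by replicate number. Libraries with different numbers were not compared in this way, so these values cannot exclude pairing between some groups. With the replicate number as a block the counts were 54, 26, 13, 9, 2, 13, 61, 2 and 11 in the same order, with WNK2 trans Sor against WNK2 trans Ctr before the interactions. The cause of these changes was not tested. Members at or near 0, RPL5 and RPL3L are limited by depth and by reads shared with copies.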

Other observations

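With sorbitol in transfected cells, 39 of 42 tested members with a TOP motif at the annotated start were lower (median −0.87) and 9 of 13 without one (median −0.58). Of 752 other genes with the motif 231 were lower (30.7%), against 23.7% of all genes. In the clone with sorbitol, 8 of 42 members with the motif and 2 of 13 without it were lower (medians −0.40 and −0.34), against 6.64% of all genes. RPS27L, whose annotated start has no such run, had 1669, 1346, 1332 and 1436 normalized counts in WNK2- Ctr and 1330, 1375, 1707 and 1425 in WNK2- Sor, so the groups overlapped, whereas it had 1539, 2320, 1488 and 1285 in WT Ctr and 1094, 1001, 981 and 1054 in WT Sor, which did not. COL1A1, which made up nearly all the reads of the 4 tested fibroblast markers, had means of 53175 normalized counts in WT Ctr, 87748 in the libraries labelled WNK2 trans Ctr and 21271 in WNK2 trans Sor. LUM (133, 261 and 94.4) and DCN (9.58, 27.6 and 2.61) had the same order of groups, while PDGFRA had 18.7, 15.9 and 20.3.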
